A study of Mus musculus with 28 samples.

Results

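The myeloid growth factor receptors described here are 10 mouse genes chosen by name: Flt3, Csf3r, Csf2ra, Csf2rb, Csf2rb2, Il3ra, Il6ra, Ifngr1, Ifnar1 and Ifnar2. They are 10 of the 35267 genes listed for the c-Kit+ cell libraries and of the 35429 genes listed for the cell lines. No measured value was part of this choice by name, but it was made with earlier results of these data known. All 10 passed the filter on low counts in both tables.

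All cells came from C57Bl/6 mouse bone marrow, selected for c-Kit, the stem cell factor receptor that marks blood stem and progenitor cells. The study holds 28 samples, of which 18 are bulk RNA libraries. The first 3 bulk groups, of 2 libraries each, are c-Kit+ cells taken fresh from marrow, c-Kit+ cells carrying an empty retroviral vector, and c-Kit+ cells carrying Ty1.MOZ-TIF2. The last 2 groups were sorted for GFP and kept for 4 days in medium with added cytokines, and the empty-vector cells are labelled as differentiated. MOZ-TIF2 is a leukaemia fusion of a histone acetyltransferase and a nuclear receptor coactivator, here with a Ty1 epitope tag. The 4 other bulk groups, of 3 libraries each, are a HOXA9 line sorted for GFP and an EYA1+HOXA9 line sorted for GFP and dTomato. Both lines derive from retrovirally transduced c-Kit+ cells replated 4 times in methylcellulose, and each was kept for 72 hours with DMSO or with 5 µM benzarone. HOXA9 is a homeobox factor, EYA1 is a tyrosine phosphatase and transcriptional coactivator, and benzarone is known as an inhibitor of the EYA phosphatases. Single replated Ty1.MOZ-TIF2 cells were profiled with DMSO or 5 µM benzarone on days 1 and 5 and with benzarone on day 3. The labels do not say whether libraries of a group came from separate mice or cultures, so p-values measure the spread between libraries, which may be technical. Transgenes were driven by retroviral vectors, the labels call each transduced population a cell line, and they give no age or sex of the mice.

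Blood cells read growth factors through receptors that mostly lack an enzyme of their own and signal through bound JAK kinases and STAT factors. In the family sharing the common beta chain, a private alpha chain binds GM-CSF or IL-3 and the beta chain carries the signal, and mice have an additional beta chain that serves IL-3 alone. FLT3 is instead a receptor tyrosine kinase of early progenitors, the G-CSF receptor drives granulocyte production, and interferon receptors set a signature of antiviral genes.

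Total estimated counts ran from 12397486 to 34463851 in the 6 c-Kit+ cell libraries and from 26340517 to 34606046 in the 12 line libraries. After the filter, 15224 and 13375 genes were tested. Levels are given as CPM, counts scaled to a common library size, and can be compared between groups for 1 gene, but not between genes, since no gene lengths were used. Within the c-Kit+ table the labelled cell states differed in the marker lists of other blood cells. The mast cell and basophil list (9 genes, such as Cma1, a mast cell chymase) summed to 54197 and 82719.9 CPM in the differentiated libraries, 209.5 to 221 CPM in the fresh ones and 12.6 to 17.3 CPM with MOZ-TIF2. The late neutrophil list (11 genes, such as the calprotectin subunits S100a8 and S100a9) summed to 21152 and 23124 CPM in fresh cells, 1050.2 and 5513 CPM with MOZ-TIF2 and 109.8 to 164.7 CPM in differentiated cells. Kit itself stood at 138 to 181 CPM in fresh cells, 4003 to 4269 CPM in differentiated cells and 29.0 to 41.0 CPM with MOZ-TIF2. The 2 MOZ-TIF2 libraries stood farther apart (Pearson r = 0.953 over genes) than the fresh pair (0.975), including in the late neutrophil list. In bulk RNA, fewer cells of a type and less RNA per cell cannot be told apart, and the part of these marker lists in the results below was not tested.

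**Figure D1:**
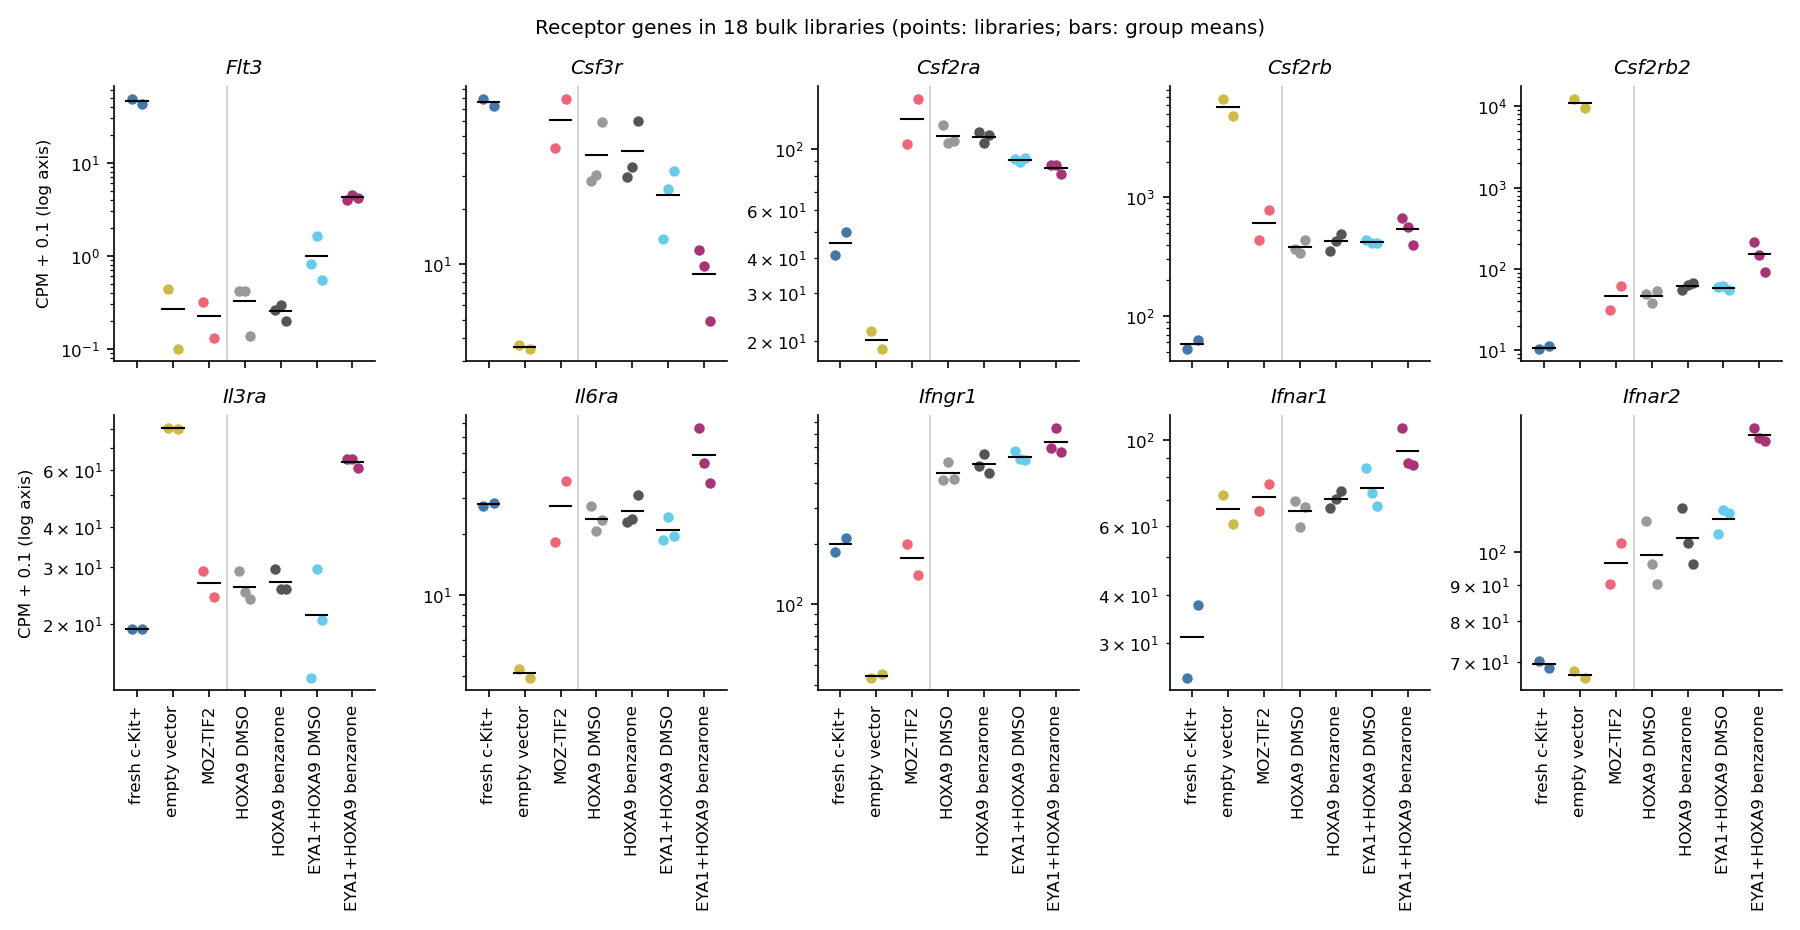
Level of each receptor gene in the 18 bulk libraries; each panel is 1 gene, the y axis is CPM on a log axis with a small constant added so that 0 can be drawn, points are libraries and bars are group means. The differentiated libraries hold the highest Csf2rb and Csf2rb2 levels (9563 and 12524 CPM for Csf2rb2), the fresh libraries the highest Flt3 levels (42.5 and 48.8 CPM), and the benzarone-treated EYA1+HOXA9 libraries stand above the other 3 line groups in Flt3 and Il3ra.

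The 3 states of c-Kit+ cells differed most in FLT3, the G-CSF receptor and the beta chains. Cultured cells of both kinds had almost no Flt3 RNA. Empty-vector cells differed from fresh cells in 9 of the 10 genes, where 40.7% of all genes differed. They had very high beta chain RNA and low Csf3r, Il6ra and Ifngr1. In Csf3r, Il6ra and Ifngr1 the MOZ-TIF2 libraries stood wide apart and overlapped the fresh ones, with no detectable difference. MOZ-TIF2 cells had more RNA for the GM-CSF receptor chains than fresh cells.

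Flt3, the receptor of FLT3 ligand, stood at 48.8 and 42.5 CPM in the fresh libraries, at 0.33 CPM (7 counts) and 0 counts in the differentiated ones, and at 0.22 CPM (8 counts) and 0.029 CPM (1 count) with MOZ-TIF2. Fresh cells were far above both cultured groups, which overlapped each other. Against fresh cells Flt3 fell by 8.45 ± 1.17 on the log2 scale with MOZ-TIF2 (SE; edgeR quasi-likelihood test, adjusted p = 0.00738) and by 8.21 ± 1.18 in differentiated cells (adjusted p = 0.00455). The call with MOZ-TIF2 was lost without either fresh library, where the log2 difference was -8.37 without replicate 1 and -8.55 without replicate 2. That in differentiated cells was lost without fresh replicate 1 (log2 -8.08). Resting on so few counts, the fitted differences ranged from -10.36 to -7.67 with MOZ-TIF2 and from -13.21 to -7.07 in differentiated cells when 1 library was left out, the ends being without replicates 1 and 2 of the cultured group. The B lymphoid and erythroid marker lists were lower in both cultured groups too, while the stem and progenitor and the megakaryocyte lists summed lower only with MOZ-TIF2. The B lymphoid list (5 genes, all 5 lower in both comparisons) summed to 464 and 409.8 CPM in fresh cells, 5.27 and 5.13 CPM with MOZ-TIF2 (2 genes at 0 in each) and 0.43 and 1.18 CPM in differentiated cells (3 and 2 at 0). The erythroid list (6 genes, all 6 lower in both) summed to 5979 and 4236 CPM in fresh cells, 4.51 and 4.87 CPM with MOZ-TIF2 (4 genes at 0 in each) and 47.5 and 63.3 CPM in differentiated cells. The stem and progenitor list (6 genes) summed to 198 and 164 CPM in fresh cells and 16.3 and 8.44 CPM with MOZ-TIF2, where 4 of 6 were lower, but to 518 and 1142 CPM in differentiated cells. The megakaryocyte list (4 genes) summed to 236 and 160 CPM in fresh cells and 2.84 and 2.07 CPM with MOZ-TIF2. In differentiated cells it summed to 2188 and 2409 CPM, with 2 genes higher and 2 lower than in fresh cells. Their part in the Flt3 values was not tested. At these counts a difference between the cultured groups was not detectable, and its sign depended on which library was left out.

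Csf3r, the receptor of G-CSF, stood at 79.0 and 72.2 CPM in fresh cells, 3.54 and 3.39 CPM in differentiated cells, and 42.7 and 79.4 CPM with MOZ-TIF2. Differentiated cells lay far below the others, while the MOZ-TIF2 libraries spanned the fresh values. In differentiated cells it fell by 4.45 ± 0.36 on the log2 scale (adjusted p = 0.000985), and MOZ-TIF2 cells were 17.6-fold above them (log2 4.14 ± 0.36, adjusted p = 0.000917). Between MOZ-TIF2 and fresh cells the log2 difference was -0.31 ± 0.31 (adjusted p = 0.494). The MOZ-TIF2 library with the higher Csf3r, replicate 2, also had the higher late neutrophil sum.

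Among the alpha chains, which bind 1 cytokine each, Csf2ra for GM-CSF and Il3ra for IL-3 moved differently. Csf2ra stood at 40.9 and 49.8 CPM in fresh cells, 21.6 and 18.7 CPM in differentiated cells, and 103.7 and 152 CPM with MOZ-TIF2, so the 3 groups did not overlap. It was 2.82-fold higher with MOZ-TIF2 than in fresh cells (log2 1.497 ± 0.26, adjusted p = 0.0129) and 6.35-fold higher than in differentiated cells (log2 2.67 ± 0.27, adjusted p = 0.00154). In differentiated cells it fell by 1.17 ± 0.26 on the log2 scale (adjusted p = 0.0159), a call lost when any 1 of the 4 libraries compared was left out (adjusted p = 0.0558 to 0.107). Il3ra stood at 19.3 and 19.1 CPM in fresh cells, 80.8 and 80.4 CPM in differentiated cells and 29.1 and 24.1 CPM with MOZ-TIF2. Here the differentiated cells were the high group, 4.20-fold above fresh cells (log2 2.07 ± 0.20, adjusted p = 0.00146) and 3.03-fold above MOZ-TIF2 cells (adjusted p = 0.00296), and the MOZ-TIF2 and fresh cells did not overlap but missed the threshold (log2 0.47 ± 0.19, adjusted p = 0.125).

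The beta chain genes are neighbours, and both differed between all 3 states. Csf2rb, the common beta chain of the GM-CSF and IL-3 receptors, lies at chr15:78325800-78351001 (GRCm38), and Csf2rb2, the beta chain that serves IL-3 only, lies beside it at chr15:78282507-78305721. The promoter of Csf2rb2 (RefSeq, GRCm38.p6, chr15:78305672-78305971, minus strand, 250 bases before the gene's start to 50 after) is shown because this gene moved most of the 10 among the c-Kit+ groups. In capitals are a match to the STAT motif TTCNNNGAA beginning 15 bases before the start and a match on the other strand to the PU.1 motif AGGAAGT beginning at base 28 after it.
Csf2rb2: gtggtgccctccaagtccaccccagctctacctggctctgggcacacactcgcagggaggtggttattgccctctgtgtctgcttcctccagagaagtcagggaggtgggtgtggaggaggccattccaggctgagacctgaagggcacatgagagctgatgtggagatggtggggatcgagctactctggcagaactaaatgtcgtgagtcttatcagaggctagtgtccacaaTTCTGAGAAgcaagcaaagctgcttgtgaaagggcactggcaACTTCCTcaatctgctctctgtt
Both motifs were searched on both strands, they do not overlap here, and 8.47% and 9.57% of 27025 RefSeq promoters of this length hold them. A match is a description of letters only.

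Csf2rb2 stood at 10.4 and 11.0 CPM in fresh cells, 12524 and 9563 CPM in differentiated cells, and 30.9 and 61.6 CPM with MOZ-TIF2. All 3 groups were apart. The level was 1035-fold higher in differentiated than in fresh cells (log2 10.02 ± 0.59, adjusted p = 0.000627), 4.33-fold higher with MOZ-TIF2 than in fresh cells (log2 2.12 ± 0.42, adjusted p = 0.0199) and 239-fold lower with MOZ-TIF2 than in differentiated cells (log2 -7.90 ± 0.54, adjusted p = 0.000507). Csf2rb took the same order, with 53.2 and 62.3 CPM in fresh cells, 6779.6 and 4827 CPM in differentiated cells, and 433 and 779 CPM with MOZ-TIF2. Its differences were 100.4-fold (log2 6.65 ± 0.48, adjusted p = 0.000804) for differentiated over fresh cells and 10.5-fold (log2 3.39 ± 0.41, adjusted p = 0.00522) for MOZ-TIF2 over fresh cells. MOZ-TIF2 cells lay below differentiated cells by a log2 difference of -3.26 ± 0.41 (adjusted p = 0.00335).

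Csf2rb and Csf2rb2 are near-identical copies, so how reads were divided between them is uncertain, and their sum was tested as well, an alternative added after the data were seen. The sum was higher in differentiated than in fresh cells by a log2 difference of 7.94 (adjusted p = 0.000715), higher with MOZ-TIF2 than in fresh cells by 3.25 (adjusted p = 0.00655), and lower with MOZ-TIF2 than in differentiated cells (log2 -4.69, adjusted p = 0.00138). Csf2rb took 84.4 ± 0.908% (SD, n = 2) of the pair's counts in fresh cells, 93.0 ± 0.476% with MOZ-TIF2 and 34.3 ± 1.11% in differentiated cells. As assigned, the pair was mostly Csf2rb in fresh and MOZ-TIF2 cells and mostly Csf2rb2 in differentiated cells. The mast cell and basophil list moved with the pair in both comparisons with differentiated cells. Of its 9 genes, 7 were higher in differentiated than in fresh cells (21% of all genes). With MOZ-TIF2, 8 of 9 were lower than in differentiated cells (16.2% of all genes). Between MOZ-TIF2 and fresh cells the list went against the pair. There 5 of 9 were lower with MOZ-TIF2 (12.4% of all genes) and none higher, while the pair's sum was higher.

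Il6ra, the IL-6 binding chain, stood at 27.3 and 28.3 CPM in fresh cells, 4.20 and 3.80 CPM in differentiated cells, and 18.1 and 36.1 CPM with MOZ-TIF2. Differentiated cells were the low group, where Il6ra fell by 2.79 ± 0.39 on the log2 scale from fresh cells (adjusted p = 0.00416), and MOZ-TIF2 cells were 6.77-fold above them (log2 2.76 ± 0.39, adjusted p = 0.00469). The MOZ-TIF2 libraries lay on either side of the fresh ones (log2 -0.04 ± 0.36, adjusted p = 0.956).

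Interferon receptor chains split into Ifngr1, the ligand-binding chain for interferon gamma, and Ifnar1 and Ifnar2, the chains for type I interferons. Ifngr1 stood at 183 and 214 CPM in fresh cells, 43.1 and 45.1 CPM in differentiated cells and 199.9 and 139 CPM with MOZ-TIF2. It fell by 2.17 ± 0.25 on the log2 scale in differentiated cells (adjusted p = 0.00257) and was 3.84-fold higher with MOZ-TIF2 than there (adjusted p = 0.00365), with no detectable difference between MOZ-TIF2 and fresh cells (log2 -0.23 ± 0.24, adjusted p = 0.528). Ifnar1 stood at 24.3 and 37.5 CPM in fresh cells, 72.0 and 60.5 CPM in differentiated cells and 65.5 and 76.7 CPM with MOZ-TIF2. Fresh cells were the low group against MOZ-TIF2 (log2 1.20 ± 0.27, adjusted p = 0.0261) and against differentiated cells (log2 1.10 ± 0.27, adjusted p = 0.0212). The second call was lost in 3 of 4 fits without 1 library (adjusted p up to 0.14), and the first was lost with replicate numbers as a block (adjusted p = 0.0509) and without MOZ-TIF2 replicate 2 (0.0705). Ifnar2 kept to 68.5 and 70.1 CPM in fresh cells, 66.3 and 67.7 CPM in differentiated cells, and 89.9 and 103 CPM with MOZ-TIF2. The MOZ-TIF2 libraries were above both other groups, without passing the threshold of edgeR (adjusted p = 0.106 against fresh and 0.0747 against differentiated cells). DESeq2 called the second difference (adjusted p = 0.0282).

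In counts, 5 of 10 receptor genes differed between MOZ-TIF2 and fresh cells, 4 of them higher with MOZ-TIF2 and 1 lower, where 23.7% of all 15224 genes did (11.3% higher and 12.4% lower). None of these 5 calls held when either fresh library was left out (adjusted p = 0.0712 to 0.188). Against differentiated cells 7 of 10 differed, 4 higher with MOZ-TIF2 and 3 lower, where 29.5% of all genes did (13.3% higher and 16.2% lower). Between differentiated and fresh cells 9 of 10 differed, 4 higher and 5 lower, where 40.7% of all genes did (21% higher and 19.7% lower). The median absolute log2 difference over the 10 genes was 0.84, 2.30 and 2.48 in these comparisons, against 0.73, 0.78 and 0.98 over all tested genes. These comparisons share their groups, so they are not independent of each other.

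**Figure D2:**
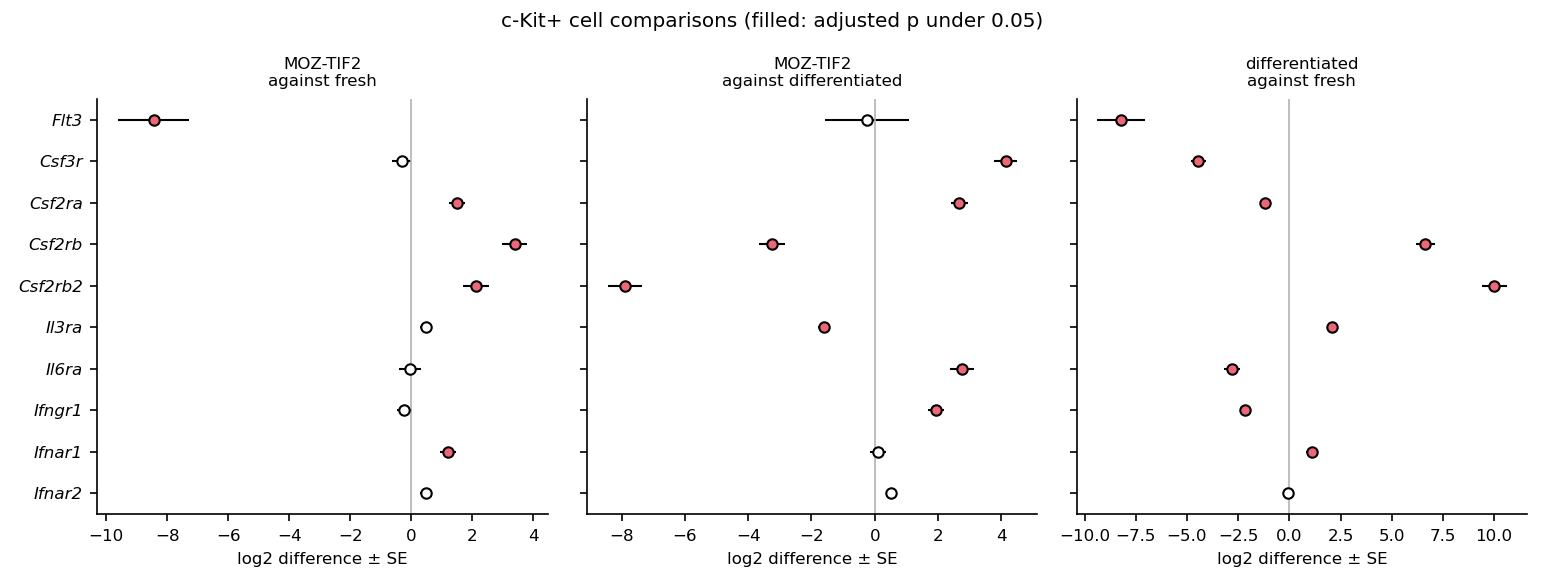
Log2 difference of each receptor gene in the 3 comparisons of c-Kit+ cells, with the standard error as a horizontal line; filled points have an adjusted p under 0.05 (edgeR). Csf2rb2 reaches 10.02 in differentiated against fresh cells and -7.90 in MOZ-TIF2 against differentiated cells, while Flt3 lies near -8 against fresh cells in both cultured groups.

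Around the receptors, the pathway genes of these states differed too, from lists of ligands, partner chains, kinases and STATs, feedback inhibitors, and interferon targets. Over all genes, 40.7% differed between differentiated and fresh cells (21% higher and 19.7% lower). Between differentiated and fresh cells, 10 of 14 feedback inhibitors and STAT targets were higher and none lower, among them Socs1, which blocks JAK kinases (log2 4.52 ± 0.45, adjusted p = 0.00172), and Ccnd2, a cyclin (log2 3.07 ± 0.23, adjusted p = 0.000864). Of 18 kinases, STATs and adaptors 9 were higher and none lower, including the adaptor Gab2 (log2 3.39 ± 0.25, adjusted p = 0.00085). Of 14 partner chains and other cytokine receptors 6 were higher and 4 lower. The higher ones included Il1rl1, the IL-33 receptor known from mast cells (log2 8.17 ± 0.46, adjusted p = 0.00061), and Il4ra, the IL-4 binding chain (log2 5.61 ± 0.26, adjusted p = 0.000418).

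Ligand genes were mostly low, with 4 of 10 tested, and Il6 was higher in differentiated than in fresh cells (log2 6.54 ± 0.78, adjusted p = 0.00273). Against differentiated cells, MOZ-TIF2 cells had 8 of 14 feedback genes lower and 2 higher, 8 of 18 kinases lower and none higher, and 10 of 14 partner chains lower and 2 higher, with Kit at a log2 difference of -6.89 ± 0.39 (adjusted p = 0.000318). Over all genes, 29.5% differed in that comparison (13.3% higher and 16.2% lower). Against fresh cells, MOZ-TIF2 cells had 4 of 10 interferon targets lower and none higher, where 12.4% of all genes were lower and 11.3% higher. Among the 4 was Ifit3, an antiviral gene (log2 -5.83 ± 1.15, adjusted p = 0.019). The interferon target list summed to 92.1 and 143 CPM in fresh cells and 22.4 and 37.8 CPM with MOZ-TIF2, while Ifnar1 was higher with MOZ-TIF2. Ptpn1, a phosphatase acting on JAK kinases, was higher with MOZ-TIF2 (log2 2.40 ± 0.21, adjusted p = 0.00207).

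A further readout in MOZ-TIF2 cells was the Ty1 tag, mapped by chromatin immunoprecipitation as 3676 and 4564 peaks per replicate, of which 3303 of the first list were shared. The labels of replicate 2 give the catalogue number of the acetyl-histone antibody, so its target is uncertain. Shared peaks lay within 5 kb of 3 of the 10 receptor genes (Il6ra, Ifngr1 and Ifnar2), where 26.2% of 14484 genes had one, a share near that of the receptors. Each of these peaks lay at the gene's start in both lists. They covered chr3:89912802-89913151 and chr3:89912702-89913201 for Il6ra, chr10:19591952-19592451 and chr10:19592002-19592851 for Ifngr1, and chr16:91372752-91373401 and chr16:91372702-91373451 for Ifnar2 (GRCm38/mm10, replicate 1 and then replicate 2).

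The promoters of these 3 genes are shown (RefSeq, GRCm38.p6, 250 bases before the start to 50 after, 5′ to 3′ on the gene's strand), with capitals for the bases under a Ty1 peak of either list: 55 bases for Il6ra (chr3:89913147-89913446, minus strand), 47 for Ifngr1 (chr10:19591699-19591998, plus strand) and 131 for Ifnar2 (chr16:91372533-91372832, plus strand).
Il6ra: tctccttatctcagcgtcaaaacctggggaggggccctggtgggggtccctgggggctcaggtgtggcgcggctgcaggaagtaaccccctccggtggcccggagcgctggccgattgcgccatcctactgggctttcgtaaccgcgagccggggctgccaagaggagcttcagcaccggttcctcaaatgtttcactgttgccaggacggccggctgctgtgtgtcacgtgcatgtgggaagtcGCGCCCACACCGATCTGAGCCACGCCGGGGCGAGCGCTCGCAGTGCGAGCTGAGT
Ifngr1: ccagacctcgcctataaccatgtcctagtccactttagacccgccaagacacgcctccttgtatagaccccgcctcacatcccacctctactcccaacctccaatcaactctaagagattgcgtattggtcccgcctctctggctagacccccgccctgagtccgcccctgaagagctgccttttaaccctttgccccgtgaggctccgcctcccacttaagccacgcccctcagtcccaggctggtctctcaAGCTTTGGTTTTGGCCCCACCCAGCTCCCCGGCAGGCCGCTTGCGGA
Ifnar2: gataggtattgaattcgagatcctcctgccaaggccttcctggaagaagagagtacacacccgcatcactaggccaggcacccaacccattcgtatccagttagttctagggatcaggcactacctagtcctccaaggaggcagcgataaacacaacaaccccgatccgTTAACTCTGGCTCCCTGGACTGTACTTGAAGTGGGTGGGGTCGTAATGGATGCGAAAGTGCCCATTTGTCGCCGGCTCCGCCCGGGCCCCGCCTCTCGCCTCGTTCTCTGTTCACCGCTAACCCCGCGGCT
In each, the peak covers the end nearest the gene body. The Il6ra promoter also holds the PU.1 motif AGGAAGT 174 bases before the start, and that of Ifnar2 the STAT motif TTCNNNGAA 214 bases before it.

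Within 50 kb, 6 receptor genes had a shared peak, adding Flt3 at 29213 bp, Csf2ra at 35341 bp and Ifnar1 at 36529 bp (distances of the replicate 1 peaks from the gene), where 44.7% of all genes had one. Csf3r, Il3ra and both beta chains had none in that window. RefSeq promoters were matched for 9 of the 10 genes. Of these 9, 3 held the STAT motif TTCNNNGAA (Csf2rb2, Ifnar1 and Ifnar2; 8.47% of all promoters) and 3 held the PU.1 motif AGGAAGT (Csf2rb2, Il3ra and Il6ra; 9.57%). Il3ra alone held the C/EBP motif TTGCNNAA (10.8% of all promoters), and none held the interferon-stimulated response motif (3.49%) or the MYB motif AACNGTT (4.36%). All motifs were searched on both strands.

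In the replated lines, benzarone was followed by changes in 6 of the 10 receptor genes in EYA1+HOXA9 cells: Flt3, Csf2rb2, Il3ra, Il6ra and Ifnar2 rose and Csf3r fell. Over all 13375 genes, 29.4% changed in EYA1+HOXA9 cells (17% up and 12.4% down). In HOXA9 cells none of the 10 passed the test, and 0% of all genes did. Il3ra and Il6ra also passed the test of a difference in effect between the lines, as did 7.54% of all genes.

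In EYA1+HOXA9 cells Flt3 stood at 0.71, 1.54 and 0.44 CPM with DMSO and at 3.89, 4.43 and 4.08 CPM with benzarone. The groups did not overlap, and the rise was 4.57-fold (log2 2.19 ± 0.50, adjusted p = 0.00611; 2.84 without DMSO replicate 2). In HOXA9 cells Flt3 stayed at or under 0.32 CPM in all 6 libraries (0.31, 0.32 and 0.036 CPM with DMSO, and 0.16, 0.20 and 0.10 CPM with benzarone). With DMSO, EYA1+HOXA9 cells had 4.05-fold more Flt3 than HOXA9 cells (log2 2.02 ± 0.59, adjusted p = 0.0277). That call was lost without EYA1+HOXA9 DMSO replicate 2 (log2 1.37, adjusted p = 0.136), without HOXA9 DMSO replicate 3 (0.0562) and with the 2 groups fitted alone (0.0729). With benzarone the log2 difference between the lines was 4.72 ± 0.60 (adjusted p = 0.000126). The difference of the benzarone effects was 2.70 ± 0.86 on the log2 scale (adjusted p = 0.0758). It passed with DESeq2 (adjusted p = 0.0207) and with replicate numbers as a block (0.0389).

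Csf3r moved the other way. With DMSO it stood at 13.6, 25.4 and 32.2 CPM in EYA1+HOXA9 cells, and with benzarone at 11.9, 9.68 and 4.80 CPM. The groups did not overlap, and Csf3r fell by 1.43 ± 0.42 on the log2 scale (adjusted p = 0.0234), lost in 4 of 6 fits without 1 library (adjusted p = 0.0579 to 0.104). HOXA9 cells had 28.2, 30.5 and 59.1 CPM with DMSO and 29.7, 33.7 and 60.1 CPM with benzarone (log2 0.07 ± 0.40, adjusted p = 1). In benzarone Csf3r was lower in EYA1+HOXA9 than in HOXA9 cells by a log2 difference of -2.22 ± 0.43 (adjusted p = 0.00237), and with DMSO the lines overlapped. The late neutrophil list also summed lower in the EYA1+HOXA9 line, at 99.2 to 331 CPM against 764 to 3180.0 CPM in HOXA9 cells, with no gene of it at 0. Its genes did not all go 1 way. Of 11, 5 were lower and 2 higher in the EYA1+HOXA9 line with DMSO, where 22.9% of all genes differed. With benzarone 8 were lower and none higher, where 25.3% of all genes differed.

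Il3ra stood at 13.5, 29.5 and 20.5 CPM in EYA1+HOXA9 cells with DMSO and at 64.5, 64.5 and 60.8 CPM with benzarone. Treated libraries were all above the controls, with a 2.99-fold rise (log2 1.58 ± 0.21, adjusted p = 0.000344). HOXA9 cells kept to 23.9 to 29.0 CPM with DMSO and 25.6 to 29.5 CPM with benzarone. The effect in EYA1+HOXA9 cells exceeded that in HOXA9 cells by a log2 difference of 1.53 ± 0.30 (adjusted p = 0.0121), and 2 of the 10 receptor genes were called in this test, both higher, where 7.54% of all 13375 genes were called (4.71% higher and 2.83% lower). Csf2ra, the GM-CSF binding chain, did not follow: it stood at 92.0, 89.2 and 92.6 CPM with DMSO and 87.1, 87.2 and 81.2 CPM with benzarone (log2 -0.10 ± 0.09, adjusted p = 0.459). Between the lines Csf2ra was lower in EYA1+HOXA9 cells, by -0.29 ± 0.09 with DMSO (adjusted p = 0.0432) and by -0.38 ± 0.09 with benzarone (adjusted p = 0.0104) on the log2 scale. The first of these was lost in 9 of 11 alternative fits (adjusted p = 0.0161 to 0.175).

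Csf2rb2 stood at 60.5, 60.8 and 55.4 CPM in EYA1+HOXA9 cells with DMSO and at 216, 147 and 92.6 CPM with benzarone. All 3 treated libraries were above the controls but spread widely, and the rise was 2.58-fold (log2 1.37 ± 0.24, adjusted p = 0.0015). HOXA9 cells had 48.5, 37.7 and 54.0 CPM with DMSO and 54.4, 63.3 and 66.3 CPM with benzarone (log2 0.39 ± 0.24, adjusted p = 1). The difference of the effects, 0.98 ± 0.34, missed the threshold (adjusted p = 0.0999) and passed without EYA1+HOXA9 benzarone replicate 3 (adjusted p = 0.0156). Csf2rb stood at 437, 410.1 and 414 CPM with DMSO and at 667, 557 and 395 CPM with benzarone in EYA1+HOXA9 cells, so the groups overlapped (log2 0.36 ± 0.18, adjusted p = 0.161). It was called without benzarone replicate 3 (adjusted p = 0.0275). Summed as 1 gene the pair rose by 0.53 on the log2 scale without passing the threshold (adjusted p = 0.0578), and the Csf2rb share of the pair was 87.7 ± 0.559% (SD, n = 3) with DMSO and 78.6 ± 2.79% with benzarone.

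Il6ra stood at 18.5, 24.1 and 19.3 CPM with DMSO and at 66.1, 44.5 and 35.3 CPM with benzarone in EYA1+HOXA9 cells. The groups did not overlap, and the rise was 2.36-fold (log2 1.24 ± 0.22, adjusted p = 0.00149). In HOXA9 cells Il6ra stood at 27.1, 20.5 and 23.2 CPM with DMSO and 22.8, 23.6 and 30.9 CPM with benzarone, which overlap. The difference of the effects was 1.11 ± 0.31 (adjusted p = 0.0471), close to the threshold, and the call was kept in 5 of 16 alternative fits (adjusted p = 0.0136 to 0.123). With replicate numbers as a block, which pair the HOXA9 libraries, the call was lost (1.07, adjusted p = 0.0643).

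Of the interferon receptor chains, Ifnar2 rose from 105.9, 114.6 and 113 CPM to 149.98, 145 and 144 CPM in EYA1+HOXA9 cells (log2 0.39 ± 0.11, adjusted p = 0.0148). The treated libraries did not overlap the controls, and the call was lost without benzarone replicate 1 (adjusted p = 0.0519). Ifnar1 went from 84.6, 73.1 and 67.5 CPM to 107 CPM, 87.2 CPM and 86.2 CPM, again without overlap but short of the threshold (log2 0.32 ± 0.12, adjusted p = 0.0657). Ifngr1 overlapped between treatments, at 517 to 575 CPM with DMSO and 567 to 749 CPM with benzarone (log2 0.24 ± 0.14, adjusted p = 0.204).

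In counts, benzarone changed 5 of 10 receptor genes upward and 1 downward in EYA1+HOXA9 cells, where 29.4% of all genes changed (17% up and 12.4% down), with a median log2 difference over the 10 genes of 0.38 against 0.01 over all genes. HOXA9 cells had 0 of 10 called, where 0% of all genes were called by edgeR. At an unadjusted p under 0.05 there were 232 genes and no receptor gene, and DESeq2 called 14 genes, none of them a receptor gene. Between lines, 2 of 10 were called with DMSO (Flt3 higher and Csf2ra lower in EYA1+HOXA9), where 22.9% of all genes were (12.1% higher and 10.8% lower). With benzarone 8 of 10 were called, where 25.3% of all genes were (15.2% higher and 10.1% lower): Flt3, Csf2rb2, Il3ra, Il6ra, Ifnar1 and Ifnar2 were higher in EYA1+HOXA9 cells and Csf3r and Csf2ra lower. The Ifnar1 call (log2 0.41 ± 0.12, adjusted p = 0.0242) was lost in 4 of 11 alternative fits (adjusted p up to 0.117). The comparisons share groups, and whether the line difference itself grew with benzarone is the test of the effects given above.

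**Figure D3:**
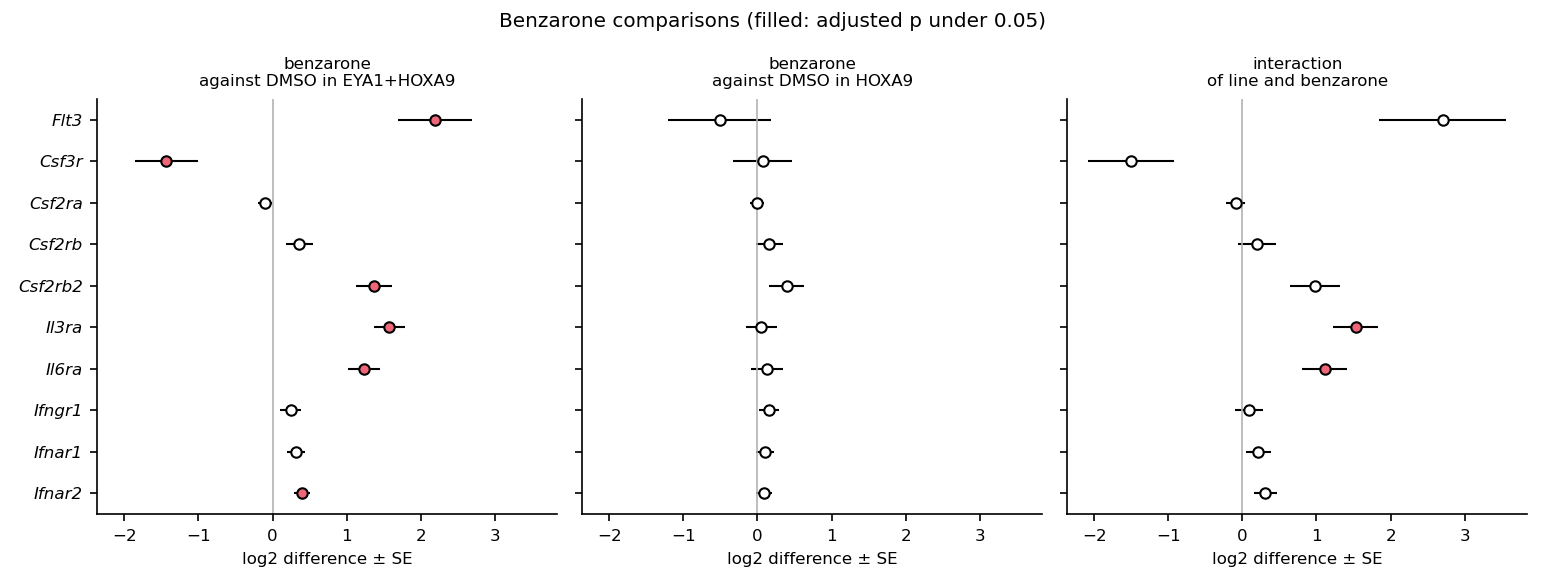
Log2 difference of each receptor gene for benzarone against DMSO in EYA1+HOXA9 cells, the same in HOXA9 cells, and the difference of these effects, with standard errors as horizontal lines; filled points have an adjusted p under 0.05 (edgeR). In EYA1+HOXA9 cells 5 genes lie above 0 and Csf3r below it as filled points, in HOXA9 cells no point is filled, and Il3ra (1.53) and Il6ra (1.11) are filled in the third panel.

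Of the pathway lists, the interferon targets had the highest share called in EYA1+HOXA9 cells, beside 29.4% over all genes. Of 8 tested interferon targets 7 rose with benzarone and none fell. They included Gbp2, a guanylate-binding protein (log2 2.33 ± 0.26, adjusted p = 0.000126), Irf7, the regulator of type I interferon genes (log2 1.86 ± 0.23, adjusted p = 0.000237), and Usp18, which limits signalling at the type I receptor (log2 2.66 ± 0.38, adjusted p = 0.000465). The list summed to 31.4 to 36.1 CPM with DMSO and 69.8 to 93.9 CPM with benzarone, while in HOXA9 cells it summed to 20.3 to 35.4 CPM and 24.3 to 40.6 CPM. Of the 8, 3 also passed the test of a difference between the lines: Gbp2 (1.60), Irf7 (1.42) and Isg15 (1.79 on the log2 scale).

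Feedback inhibitors and STAT targets, with 3 of 14 higher and 1 lower, were near the share over all genes. Socs2 (log2 2.08 ± 0.23, adjusted p = 0.000115) and Cish (log2 0.95 ± 0.17, adjusted p = 0.00163), both STAT5-induced SOCS-family genes, were among the higher, and the survival gene Bcl2l1 was the lower (log2 -0.81 ± 0.15, adjusted p = 0.00178). Socs2 was also above HOXA9 cells with DMSO (log2 1.28 ± 0.23, adjusted p = 0.00168) and its benzarone effect differed between the lines (1.88, adjusted p = 0.00615). Of 8 partner chains 3 rose and 1 fell, with Il4ra at 1.03 ± 0.17 (adjusted p = 0.000978), Ifngr2, the partner of Ifngr1, at 0.59 ± 0.16 (adjusted p = 0.0153) and Kit at -0.72 ± 0.20 (adjusted p = 0.0186) on the log2 scale. Of 18 kinases and STATs 3 rose and 1 fell, a share below that of all genes, with the kinase Lyn at 0.54 ± 0.16 (adjusted p = 0.0207) and Jak3 at -0.63 ± 0.18 (adjusted p = 0.02) on the log2 scale. No ligand gene passed (2 tested). The monocyte and macrophage list, of which 4 of 8 tested genes rose with benzarone, summed to 5770.3 to 7119 CPM with DMSO and 5684 to 8539 CPM with benzarone in EYA1+HOXA9 cells, with no gene at 0. The part of these cells in the receptor values was not tested.

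Single MOZ-TIF2 cells gave the receptors over time. The 5 conditions held 883 (DMSO, day 1), 826 (benzarone, day 1), 829 (benzarone, day 3), 1662 (DMSO, day 5) and 1496 cells (benzarone, day 5), 5696 in all, with medians of 42565, 44762, 44743, 24576 and 19763 unique molecule counts (UMIs) per cell. Each condition is 1 sample, and both day 5 conditions come from 1 sample that was split by the deposited annotation, so nothing was tested. Values are UMIs summed over cells as CPM, with exact Poisson intervals at 95% that cover counting error only. Days 1 and 3 and day 5 come from tables with different gene lists (9448 and 11662 genes) and are not compared with each other. The tables share 9 cell barcodes.

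On day 1 no receptor gene differed by more than 1.5-fold between benzarone and DMSO, where 1.8% of 9445 genes did (0.879% higher and 0.921% lower). The highest ratio was that of Ifngr1, at 61.6 against 44.5 CPM (ratio 1.38, 1.30 to 1.47), and the lowest that of Csf3r, at 12.7 against 16.5 CPM (ratio 0.773, 0.685 to 0.872). From day 1 to day 3 in benzarone 4 genes were past 1.5-fold, all higher, where 5.77% of genes were past it (4.99% higher and 0.783% lower): Csf2ra (10.2 to 19.0 CPM, ratio 1.88), Csf2rb (96.1 to 150.5 CPM, 1.57), Csf2rb2 (11.6 to 23.0 CPM, 1.98) and Il3ra (9.14 to 13.8 CPM, 1.51). These are the chains of the GM-CSF and IL-3 receptors. No DMSO sample of day 3 is among the 28 samples, so day and drug cannot be told apart there.

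By day 5 the beta chains stood out with benzarone. Csf2rb2 was at 8.58 CPM (356 UMIs) with DMSO and 69.8 CPM (2260 UMIs) with benzarone, 8.14-fold higher (7.28 to 9.13). Csf2rb was at 79.3 and 354 CPM, 4.46-fold higher (4.29 to 4.64), and the Csf2rb share of the pair was 90.2% with DMSO and 83.5% with benzarone. Csf2ra was at 13.9 and 41.7 CPM, 2.99-fold higher (2.71 to 3.30), while Il3ra, at 9.93 and 13.6 CPM, stayed within 1.5-fold.

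Flt3 went the other way, from 6.72 CPM (279 UMIs, 5.96 to 7.56 CPM) with DMSO to 0.34 CPM (11 UMIs, 0.17 to 0.61 CPM) with benzarone, 19.8-fold lower (10.9 to 40.1). Csf3r was 1.56-fold lower (1.33 to 1.82), at 11.7 and 7.54 CPM. Ifnar1 (11.3 and 20.6 CPM, ratio 1.82) and Ifnar2 (37.0 and 55.7 CPM, ratio 1.505, 1.41 to 1.61) were higher with benzarone, Ifnar2 at the 1.5-fold line itself. Il6ra (8.50 and 12.7 CPM, ratio 1.49) and Ifngr1 (51.0 and 73.1 CPM, ratio 1.43) were just under it. So 5 genes were past 1.5-fold higher and 2 lower, where 25.2% and 28.2% of 11662 genes were (53.4% in either direction), and the median log2 ratio was 0.58 over the receptors and -0.11 over all genes. Without mitochondrial and ribosomal protein genes in the totals the Ifnar2 ratio was 1.30 and that of Csf2rb2 7.05.

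**Figure D4:**
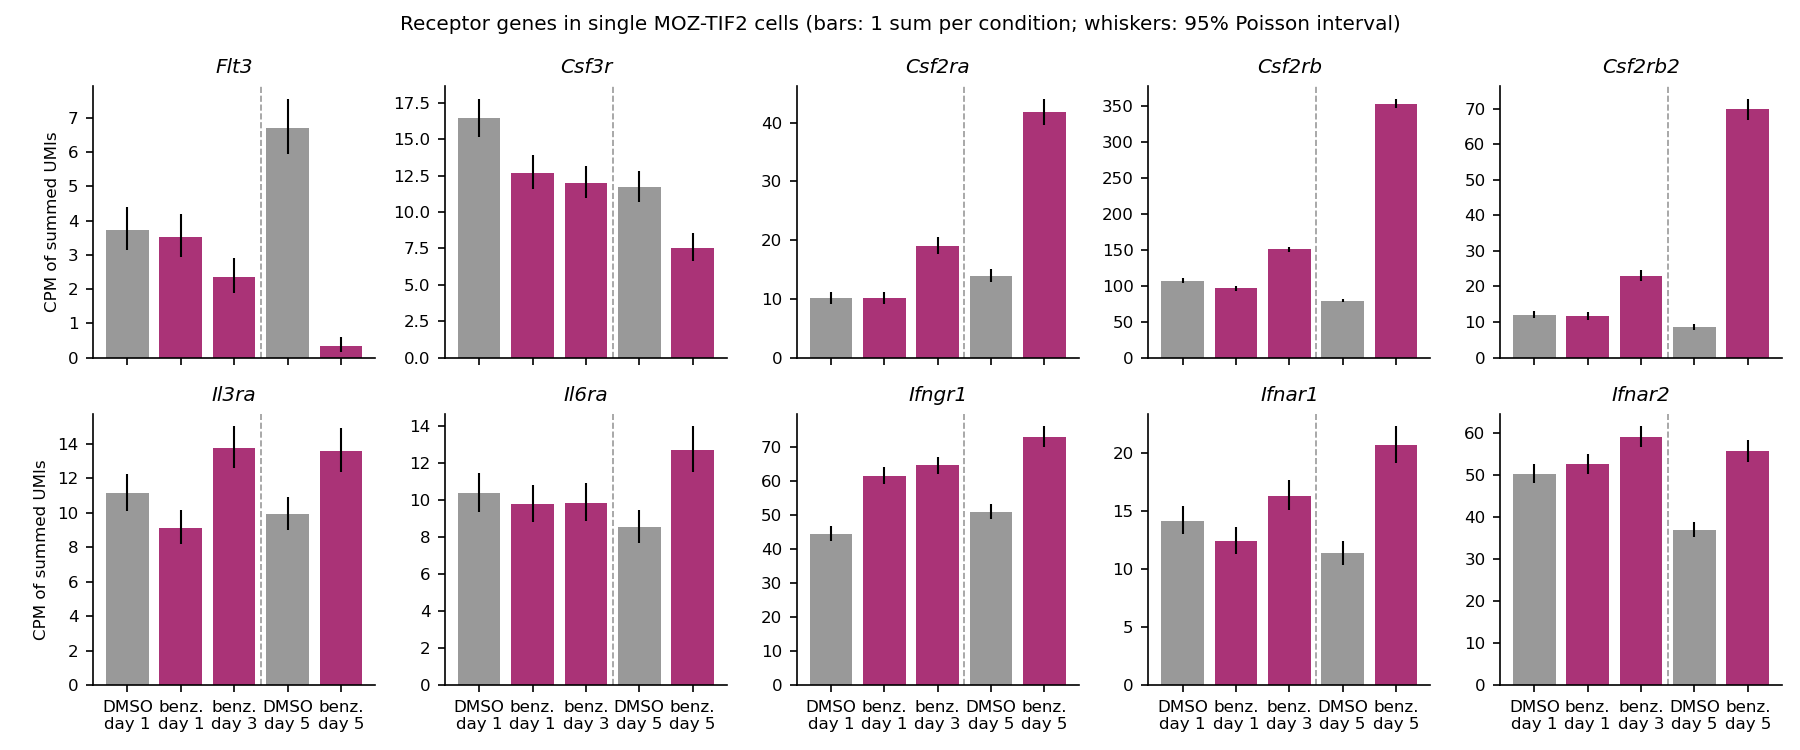
Summed UMIs of each receptor gene as CPM in the 5 conditions of single MOZ-TIF2 cells; bars are 1 sum per condition, whiskers are 95% Poisson intervals, grey is DMSO, purple is benzarone, and the dashed line separates tables that are not compared. On day 5 Csf2rb2 reads 8.58 with DMSO and 69.8 with benzarone, and Flt3 reads 6.72 and 0.34.

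Marker lists moved at the same time. The monocyte and macrophage list summed to 1185 CPM with DMSO and 19887 CPM with benzarone on day 5, the late neutrophil list to 10398 and 21631 CPM, and the primary granule list (Mpo, Elane, Prtn3, Ctsg and Ms4a3, of early granulocytes and monocytes) to 10624 and 1626 CPM. On days 1 and 3 in benzarone the monocyte and macrophage list went from 1139 to 3260.3 CPM. All listed genes of these 3 lists were in the day 5 table. Of the 4 megakaryocyte genes, Pf4 and Gp9 were in it and summed to 118.8 CPM with DMSO and 3384 CPM with benzarone, and Pf4, the only one of them in the earlier table, went from 18.3 to 407 CPM between days 1 and 3 in benzarone. The part of these lists in the receptor values was not tested. Mast cell and basophil genes stayed low, at 43.1 CPM with DMSO and 11.2 CPM with benzarone on day 5 over the 5 of 9 genes listed, lower in the condition with the high beta chain values.

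Pathway genes differed on day 5 too, when 53.4% of all genes were past 1.5-fold (25.2% higher and 28.2% lower with benzarone). Of 10 interferon targets 9 were past 1.5-fold higher with benzarone and none lower, with Isg15, an interferon-induced ubiquitin-like protein, at 98.6 against 2.65 CPM (37.2-fold) and Rsad2 at 370 against 8 UMIs. Of 18 kinases and STATs 10 were higher and 1 lower, with Irf9, a partner of STAT factors in type I interferon signalling, 4.74-fold higher, and of 14 feedback genes 10 were higher and none lower. Partner chains had 6 of 8 measured genes higher and 1 lower: Il4ra was 3.54-fold higher and Kit 5.34-fold lower. Of the ligands 3 were measured and all were higher, with Csf1, the macrophage growth factor, at 7.48 against 1.30 CPM and Il6 at 50 against 1 UMIs. On day 1 the lists gave 2 genes past 1.5-fold: Il6st, the IL-6 signal chain, was 1.67-fold lower, and Usp18 was at 25 against 10 UMIs.

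Within each condition the receptors also varied with the marker content of the cells. Cells were ranked by the share of their UMIs in a marker list, and the 25% of cells with the lowest share (the low end) were compared with the 25% with the highest (the high end). These ends are ranges of a score, not cell types. Flt3 UMIs were 81 at the low and 3 at the high late neutrophil end (220 cells each) with DMSO on day 1, and 130 against 10 (415 cells each) with DMSO on day 5. In benzarone they were 76 against 0 on day 1 (206 cells each), 62 against 0 on day 3 (207 cells each) and 8 against 2 on day 5 (374 cells each). Cells with least late neutrophil RNA held more Flt3 UMIs than those with most, and few UMIs were left to compare in day 5 benzarone. Ranked by the primary granule list, an ordering added after the data were seen, Flt3 was again higher at the low end for both DMSO samples (75 against 1 and 168 against 7 UMIs) and for benzarone on days 1 and 3 (61 against 5 and 30 against 2), but not on day 5 (1 against 8).

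For the beta chain of IL-3, Csf2rb2, the high late neutrophil end exceeded the low end by 4.43-fold (3.34 to 5.95) with DMSO on day 1 and by 2.99-fold (2.23 to 4.07) with DMSO on day 5. In benzarone this ratio was 5.65 on day 1, 5.21 on day 3 and 1.07 (0.925 to 1.23) on day 5. Csf2ra gave 3.21, 2.98, 3.24, 3.22 and 1.12 in the same order, and Csf2rb 2.86, 2.58, 3.14, 3.54 and 1.01. All 3 chains thus had a gradient of over 2.5-fold in 4 conditions and a ratio near 1 in day 5 benzarone, where both ends were high (50.1 and 53.5 CPM for Csf2rb2). With ends of 10% of the cells, the ratios in day 5 benzarone were 0.665 (0.492 to 0.892) for Csf2rb2, 0.668 (0.585 to 0.762) for Csf2rb and 0.957 (0.722 to 1.27) for Csf2ra, so that both beta chains were lower at the high end. In the other 4 conditions the ratios of the 3 chains stayed above 2.5 with these ends. At the 25% ends of day 5 benzarone, the monocyte and macrophage list had medians of 11548.5 CPM at the low and 12024 CPM at the high end. With DMSO its low-end and high-end medians were 177 and 719 CPM on day 1 and 519 and 962 CPM on day 5. In benzarone they were 175 and 772 CPM on day 1 and 310 and 3269 CPM on day 3. The part of this list in the ratios was not tested.

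Ranked by the monocyte and macrophage list, also added after the data were seen, a gradient was present in every condition, day 5 benzarone included (Csf2rb2 2.41-fold, 2.09 to 2.77, and Csf2ra 1.74-fold, 1.49 to 2.03, high over low end). Csf2rb2 was also higher at the low end of primary granule genes, by 7.31-fold (DMSO, day 1), 7.01-fold (DMSO, day 5), 7.76-fold, 17.3-fold and 2.88-fold (benzarone on days 1, 3 and 5). Il6ra took the same direction against that list, by 5.67, 3.11, 3.83, 4.52 and 1.72-fold. Ifngr1 took the other, 1.70-fold and 1.26-fold higher at the high end of primary granule genes with DMSO on days 1 and 5. Csf3r had high-over-low ratios along the late neutrophil list of 1.35 and 1.48 with DMSO on days 1 and 5, and of 0.976, 1.19 and 2.02 (1.39 to 2.96) with benzarone on days 1, 3 and 5. In day 5 benzarone its ratio was above those of Csf2ra, Csf2rb and Csf2rb2.

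**Figure D5:**
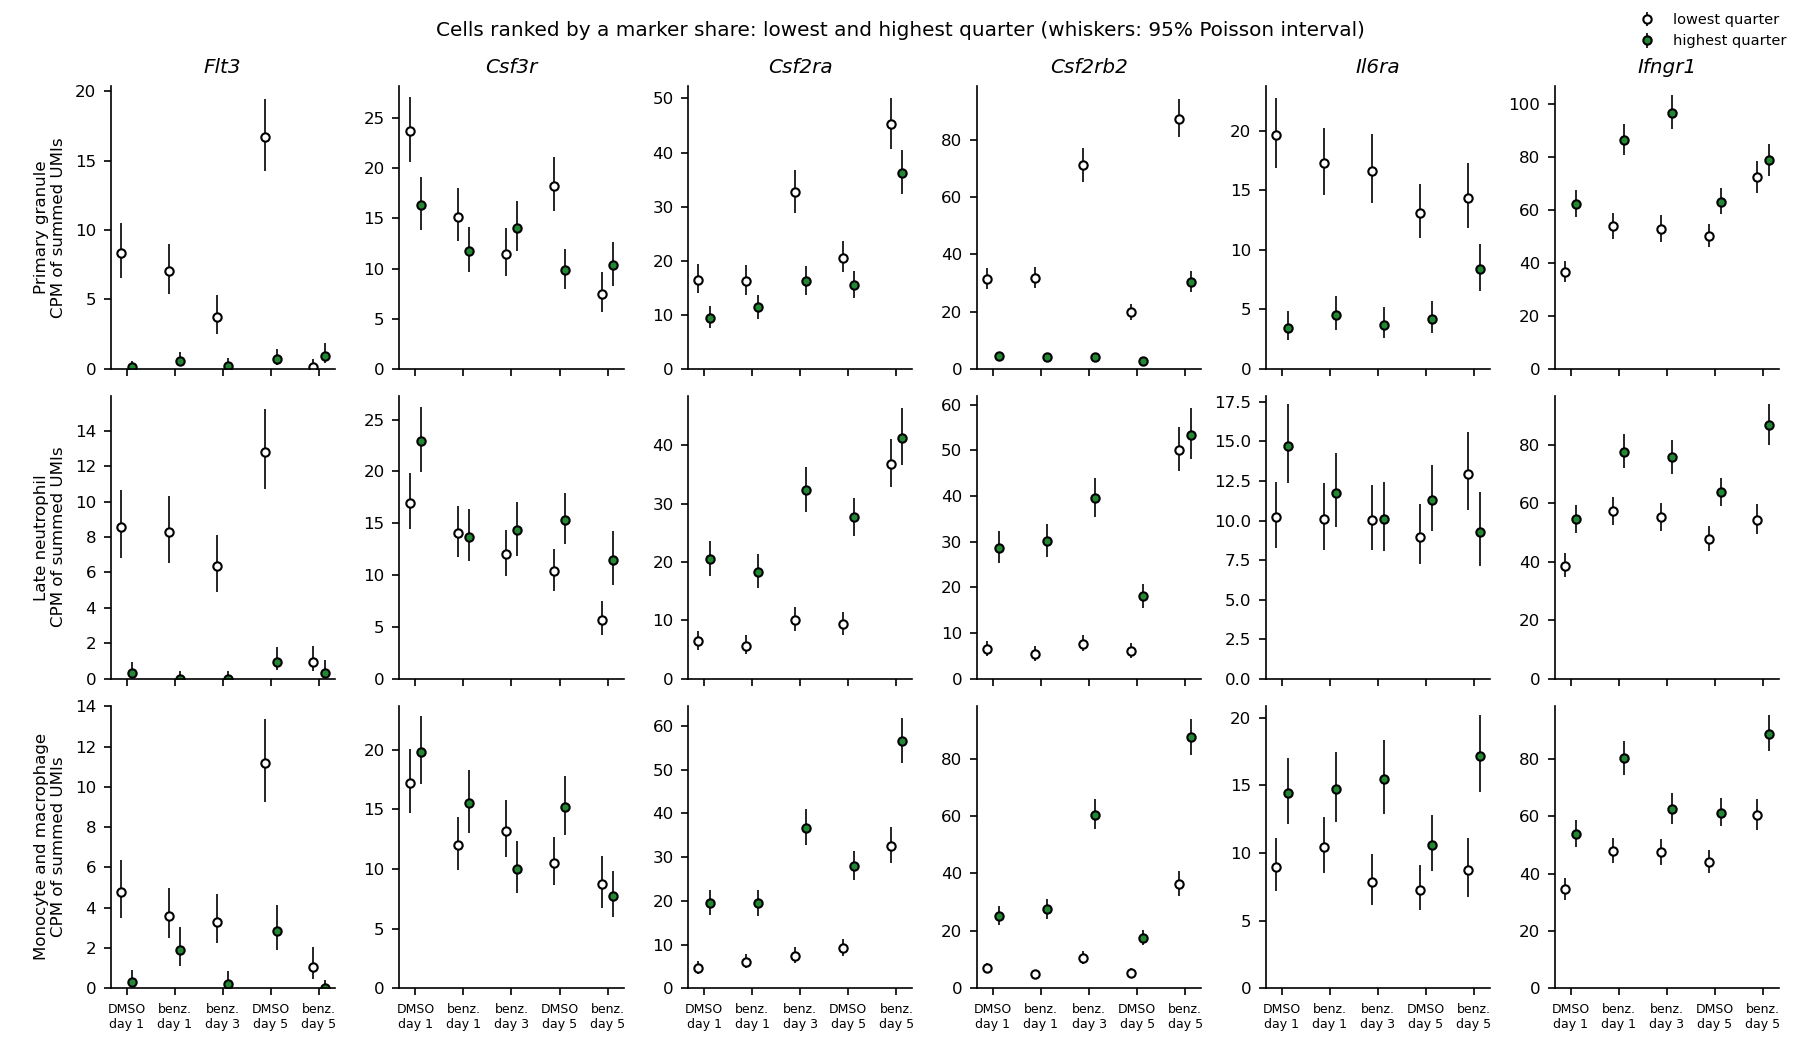
CPM of 6 receptor genes in the 25% of cells lowest (open) and highest (filled) when ranked by the primary granule, late neutrophil or monocyte and macrophage list, in each condition, with 95% Poisson whiskers. Flt3 lies at the low late neutrophil end (12.8 against 0.96 CPM with DMSO on day 5), and the open and filled Csf2rb2 points in the late neutrophil panels are far apart in 4 conditions and close (50.1 and 53.5 CPM) in day 5 benzarone.

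The borders of these ends cut through a continuous range: between 79 and 255 cells of a condition lay within 10% of the lower late neutrophil border and between 13 and 91 within 10% of the upper one. Set side by side, benzarone went with more Csf2rb2 RNA and less Csf3r RNA both in bulk EYA1+HOXA9 cells and in day 5 MOZ-TIF2 cells, and with more Flt3 in the first but less in the second. These cells differ in transgenes, time and assay, and the difference between them was not tested.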

How the data were processed

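Gene tables held estimated counts per gene, made by the authors before they deposited them; Salmon 0.13.0, Cell Ranger 3.0.0, Bowtie2 and the build GRCm38/mm10 are named in the submitters' processing notes, without their roles. Counts of unique molecules per cell and the annotation of cells to conditions are the authors' deposited tables, and so are the Ty1 peak lists, called per replicate, of which only positions were used. Doublets were not called, and no cell was removed.

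Estimated counts were rounded, scaled by TMM and tested with edgeR 4.0.16 in R 4.3.3 (glmQLFit and glmQLFTest, two-sided, filterByExpr, all groups of a table in 1 fit, Benjamini-Hochberg adjustment over all genes tested, threshold 0.05); the standard error is the log2 difference divided by the root of F. All 10 receptor genes are named. From each pathway list, up to 3 called genes with the smallest p in a comparison could be named; Kit is named beyond that rule, chosen because it is the marker of the sort. The receptor genes and lists were chosen with earlier results of these data known. The fits were tested on simulated data, where most changes of the smaller size used were missed for MOZ-TIF2 against fresh and found for the lines with DMSO. Of 100 changes of 1 on the log2 scale, 10 were recovered in the first and 89 in the second. Of 100 changes of 2, 74 and 100 were recovered. Same-numbered libraries deviated together in every pair for HOXA9 benzarone against DMSO alone (r = 0.279, 0.3 and 0.55), where the replicate block called 6 genes and no receptor gene. Alternatives were DESeq2 1.42.0, its size factors, no filter, a replicate block, the compared groups alone, and each library left out. Peak starts were moved to 1-based positions, and shared peaks overlap by at least 1 bp. The acetyl-histone and input samples (4) were not analysed here.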

Additional observations from a re-analysis of the deposited data

Results flagged for a closer look

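The benzarone effect on Il3ra differed between the EYA1+HOXA9 and HOXA9 lines by the test of that difference (1.53 on the log2 scale, adjusted p = 0.0121, edgeR), with all 3 treated EYA1+HOXA9 libraries above their controls and overlapping groups in HOXA9 cells. Il6ra also differed between the lines in that test (1.11 on the log2 scale, adjusted p = 0.0471), with all 3 treated EYA1+HOXA9 libraries above their controls. Its call was kept in only 5 of 16 alternative fits (edgeR or DESeq2, adjusted p = 0.0136 to 0.123). Among the fits that lost it was that with replicate numbers as a block (1.07, adjusted p = 0.0643).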

How the results depend on the processing

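Of 400 recomputed log2 differences of called receptor genes, 348 kept direction and call and 52 kept direction but lost the call; of 476 of genes not called, 444 kept both, 13 gained a call and 19 changed sign. With 1 library left out, log2 differences that changed sign ranged from -2.14 to 4.77 for Flt3 and -0.0181 to 0.225 for Ifnar1 (MOZ-TIF2 against differentiated cells), and against fresh cells from -0.82 to 0.0737 for Csf3r, -0.61 to 0.38 for Il6ra and -0.51 to 0.0162 for Ifngr1. For benzarone in HOXA9 cells they ranged from -0.0492 to 0.0643 for Csf2ra, -0.31 to 0.49 for Csf3r, -0.0268 to 0.14 for Il3ra and -0.0238 to 0.24 for Il6ra, and for the difference between lines from -0.0026 to 0.38 for Csf2rb and -0.0396 to 0.18 for Ifngr1. Without the filter, Csf2ra with benzarone in HOXA9 cells was at 0.0022. The cause of these changes was not tested beyond the smaller number of libraries.

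Counts of receptor genes called with 1 library left out ranged from 0 to 5 (MOZ-TIF2 against fresh, 5 in full), 0 to 1 (lines with DMSO, 2 in full), and 1 to 3 (difference between lines, 2 in full). With DMSO the lines gave 1 with DESeq2's size factors, 1 without the filter and 0 with the 2 groups alone, and the difference between lines gave 1 with those size factors. Over all genes, leaving out 1 library gave 374 to 3181 calls for MOZ-TIF2 against fresh (3602 in full; 2094 with the replicate block), 2847 to 4278 against differentiated (4486), 1259 to 4891 for differentiated against fresh (6198), 1735 to 3486 for the lines with DMSO (3061), 2211 to 3596 with benzarone (3382), 2353 to 3923 for benzarone in EYA1+HOXA9 (3933), 0 to 1 in HOXA9 (0; 14 with DESeq2, 6 with the block, 1 with the 2 groups alone) and 408 to 1182 for the difference between lines (1009; 1716 with DESeq2).

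No other comparison had all its same-numbered pairs correlated above 0.1: 0 of 6 pairs were in the c-Kit+ table and 7 of 18 in the line table, the 3 HOXA9 pairs included. With numbers as a block, 4 receptor genes were called for MOZ-TIF2 against fresh, 7 against differentiated cells (8 with DESeq2) and 9 for differentiated against fresh; Ifngr1 between the lines in benzarone was also called (adjusted p = 0.0406), as with DESeq2 (0.0403). A Ty1 window of 50 kb took in 6 receptor genes. In single cells, ends of 10% in place of 25% of cells moved 77 of 138 values, and without mitochondrial and ribosomal genes the day 5 ratios were 2.59 (Csf2ra), 3.86 (Csf2rb), 1.19 (Il3ra), 1.24 (Ifngr1) and 1.57 (Ifnar1). Depth limits Flt3 in cultured cells.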

Other observations

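Genes whose log2 CPM followed each receptor most closely were taken over the 6 c-Kit+ libraries and, separately, the 12 line libraries, among 11214 genes ranked by the smaller of both Pearson r values. Libraries of 1 group lie close together, so these values describe the group levels, and they carry no test. Csf2rb2 was followed by Laptm5 (r = 0.994 and 0.973), Runx1 (0.970 and 0.968) and Il4ra (0.996 and 0.964), which are a lysosomal membrane protein of blood cells, a blood transcription factor and the IL-4 binding chain. Flt3 was followed by Eng (0.965 and 0.966), the TGF-beta coreceptor endoglin, and Csf3r by Rflnb (0.984 and 0.973) and Prom1 (0.935 and 0.931). Il3ra was followed by Lpar1 (0.974 and 0.963), a lysophosphatidic acid receptor, and Csf2ra by Pstpip1 (0.966 and 0.939). Ifnar1 had Wdfy2 (0.967 and 0.946), Ifnar2 had Nkiras2 (0.954 and 0.948), and Csf2rb had Secisbp2l (0.985 and 0.956) as the closest gene. The closest genes of Il6ra (Akap12, 0.928 and 0.923) and Ifngr1 (Nudt4, 0.938 and 0.871) had lower values.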
